A study of Mus musculus with 64 samples.

Results

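Hba-a1 encodes an alpha chain of adult haemoglobin, and its transcript was followed here in mouse liver through every cDNA probe whose platform annotation gives Hba-a1 as its single gene symbol. Hba-a1 is 1 of 7151 genes measured in this way, and it had 12 of the 16896 probes of the series, of which 9663 carried a single symbol. All 12 lay on membrane B and 0 on membrane A. No other gene with a single symbol had as many probes.

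The livers came from 32 C57BL/6 mice, an inbred laboratory strain, that ate regular feed freely until they were killed; no transgene, drug or other treatment is named, so the groups differ by age and sex. The juvenile class held 8 mice of 17 to 44 days (4 male, 4 female), and the young adult class held 9 mice of 174 to 194 days (5 male, 4 female). The middle-aged class held 7 mice of 479 to 499 days (3 male, 4 female), and the old class held 8 mice of 712 to 743 days (4 male, 4 female). Total RNA of each liver was labelled with radioactive phosphorus and hybridised to a pair of nylon membranes of 8448 probes each. Each array was deposited as z-scores, so a level of 0 is the mean of all probes of that array and a difference of 1 is 1 SD over its probes. This unit, called array SD below, gives no fold change, and global shifts between arrays are removed by it.

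Haemoglobin is built of a pair of alpha chains and a pair of beta chains, each holding a haem group that binds oxygen. The liver is the main site of red cell formation in the mouse fetus, and this activity moves to spleen and bone marrow around birth. Globin transcripts in a liver extract can therefore come from blood-forming cells within the tissue, or from young red cells in the blood that the organ holds. In bulk tissue, fewer cells of a type and less RNA per cell cannot be told apart, nor can blood left in the organ be told from blood-forming cells.

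In GRCm38.p6 the RefSeq gene table places Hba-a1 at chr11:32283672-32284486, within the alpha globin cluster. Upstream of it lies Hba-x, the embryonic zeta chain gene (chr11:32276600-32278116). Downstream lie Hbq1b, a theta globin gene (chr11:32286964-32287912), Hba-a2, the second adult alpha globin gene (chr11:32296492-32297310), and Hbq1a, a second theta globin gene (chr11:32300069-32300873). The 250 bases before the start of Hba-a1 are shown because they place it beside its near-identical copy. They run from chr11:32283422-32283671 on the plus strand, from RefSeq's table for GRCm38.p6, with matches to 4 short motifs in capitals.

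Hba-a1 promoter: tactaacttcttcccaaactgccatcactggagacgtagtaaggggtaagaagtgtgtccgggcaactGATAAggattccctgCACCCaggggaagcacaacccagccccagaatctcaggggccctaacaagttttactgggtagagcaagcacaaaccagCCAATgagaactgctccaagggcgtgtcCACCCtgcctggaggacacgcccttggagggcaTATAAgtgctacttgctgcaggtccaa

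The capitals mark GATAA, 182 bases before the start, CACCC at 167 and 60 bases, CCAAT at 88 bases and TATAA at 27 bases, searched on both strands. Of 32851 promoter windows in the table, 22.6% held GATAA, 52.0% CACCC, 33.8% CCAAT and 22.8% TATAA, so each match is common and is a description of the letters alone. Around the start, 297 of 297 compared bases were identical between Hba-a1 and Hba-a2 at an offset of 3 bases. The compared bases lie around the start and do not cover the whole transcripts. If the transcripts are as alike, a cDNA probe named for one could bind transcript of the other. The split between Hba-a1 and Hba-a2 probes is therefore uncertain throughout. The sequences of the cDNA clones themselves were not used here.

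The 12 probes of this single gene did not share a level. Their means over the 32 mice ran from percentile 39.9 to percentile 73.2 of all probes on membrane B, with 8 probes above the array mean and 4 below it. Probe 12659 was the brightest at 0.576 ± 0.156 array SD (SD, n = 32), followed by probe 12681 at 0.539 ± 0.188 and probe 12725 at 0.482 ± 0.286. Probe 12615 was the dimmest at -0.286 ± 0.270, and probes 12571 (-0.265 ± 0.284), 16513 (-0.249 ± 0.219) and 10966 (-0.209 ± 0.272) lay close to it. Neighbours in this order overlapped widely over the mice: probe 12659 ranged from 0.25 to 0.82 and probe 12681 from 0.04 to 1.0. The other 5 probes had means between 0.0553 and 0.328. A probe's level also depends on its clone and spot, so these levels order probes and not transcripts. The spread of the Hba-a1 probes between mice was ordinary for the membrane, with SDs at a median percentile of 48.0.

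For scale, the 4 measured hepatocyte markers lay between percentiles 95.7 and 99.9 of their membranes. They include Alb, the serum protein albumin, at percentile 99.9, and Ttr, the thyroid hormone carrier transthyretin, at percentile 95.7. Among other alpha-like globins, Hba-a2 probe 11536 was far brighter than any Hba-a1 probe at 1.72 ± 0.260 array SD, percentile 95.3. The remaining 3 Hba-a2 probes had means of 0.0266 ± 0.324 (probe 496, membrane A), -0.283 ± 0.269 (probe 10328) and -0.0466 ± 0.188 (probe 10504). Hba-x was dimmer, at -0.637 ± 0.215.

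**Figure D1:**
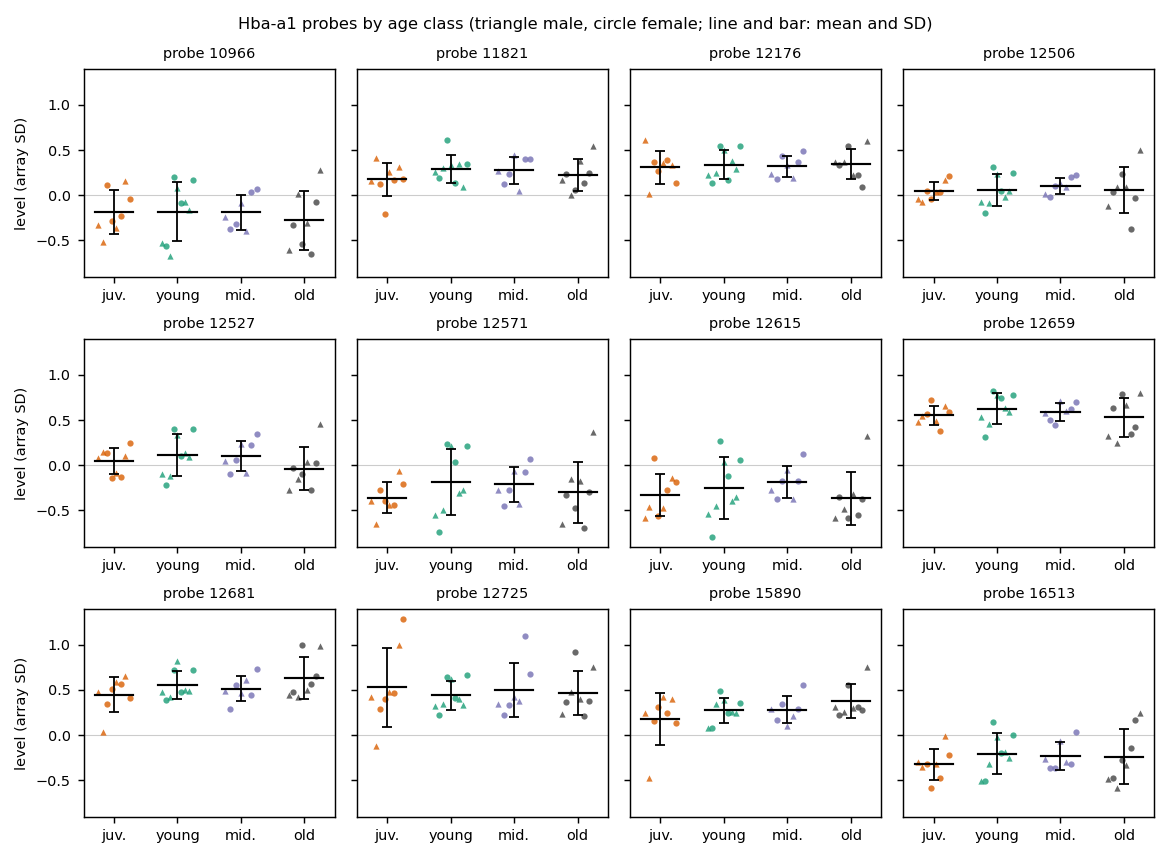
Level of each of the 12 Hba-a1 probes (vertical axis, array SD) in the 32 livers, by age class (horizontal axis; juv., juvenile; mid., middle-aged). Triangles are males, circles females, and the line and bar are the mean and SD; juvenile and adult values overlapped for all 12 probes.

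Whether alpha globin transcript falls from the weeks after birth to adulthood was addressed by comparing the 24 adults with the 8 juveniles. No Hba-a1 probe passed the test. The mean of the 12 probes was 0.0902 ± 0.128 array SD in juveniles (SD, n = 8), 0.156 ± 0.203 in young adults (n = 9), 0.155 ± 0.133 in middle-aged mice (n = 7) and 0.117 ± 0.198 in old mice (n = 8). Juvenile mice ranged from -0.125 through a median of 0.0733 to 0.296, and adults from -0.142 through 0.119 to 0.552, so the juveniles lay inside the adult range. The gene mean was 0.0527 ± 0.0746 array SD (SE) higher in adults, with a 95% interval from -0.100 to 0.205 (limma, adjusted p = 0.930 over 7151 genes).

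Probe by probe, 0 of 12 passed an adjusted p of 0.05 in adults against juveniles, where 0% of all 16896 probes passed, and 0 of 12 had an unadjusted p under 0.05, where 2.72% of all probes did. The difference was above 0 for 10 of 12 probes, beside 48.5% of all probes, but the 12 probes measure the same mice and are not independent. The median difference was 0.0465 array SD, beside -0.00461 over all probes. The 95% interval of each of the 12 differences included 0, and the bounds ran from -0.315 to 0.363.

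**Figure D2:**
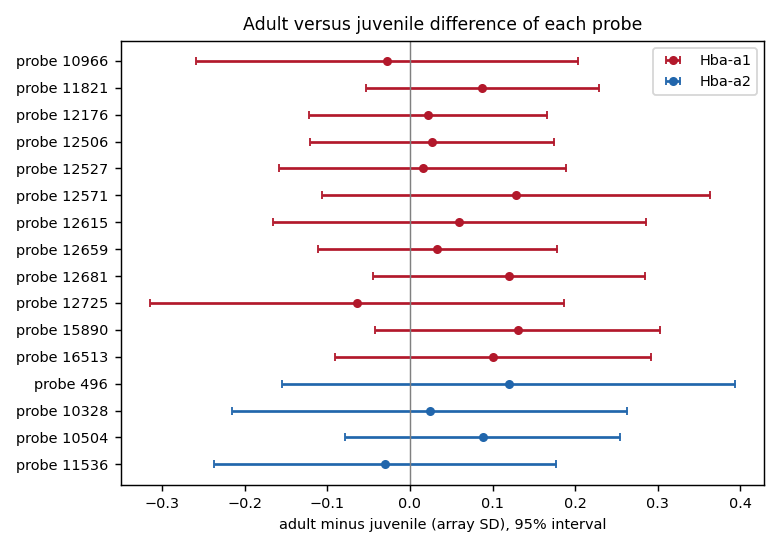
Adult minus juvenile difference (horizontal axis, array SD) of the 12 Hba-a1 and 4 Hba-a2 probes, with points for the estimate and bars for the 95% interval of limma's fit to 32 mice. All 16 intervals include 0.

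Probe 12659, the brightest, had 0.38, 0.555 and 0.72 array SD as its lowest, median and highest juvenile value and 0.25, 0.61 and 0.82 in adults. The adults thus spread to both sides of the juveniles, and the difference was 0.0330 ± 0.0706 (SE; limma, adjusted p = 0.908). Probe 15890 had the smallest unadjusted p, with juveniles at -0.48, 0.24 and 0.42 and adults at 0.08, 0.29 and 0.76. Its difference of 0.130 ± 0.0842 (adjusted p = 0.887) included a juvenile, male replicate 2, far below every other mouse. The whole membrane B array of that mouse stood apart, with a median of -0.24 where the others lay between -0.11 and 0.04. Without that mouse the gene mean difference of adults and juveniles was 0.0186 array SD. Probe 12571 had juveniles at -0.65, -0.40 and -0.07 and adults at -0.74, -0.27 and 0.37, a difference of 0.128 ± 0.114. Probe 12725 had the widest juvenile range, from -0.12 to 1.29 with a median of 0.445, against 0.21 to 1.1 with a median of 0.39 in adults. It was 1 of the 2 probes with a difference below 0, at -0.0638 ± 0.122, the other being probe 10966 at -0.0280 ± 0.113.

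The remaining 7 probes had differences between 0.0153 (probe 12527) and 0.120 (probe 12681). The signs of several probes turned under other scalings. With each array set to the same median and median absolute deviation, the differences of probes 12176, 12506, 12527 and 12659 were below 0 (-0.0152, -0.00869, -0.0264 and -0.0168), so the count of 10 above 0 holds for the deposited scaling.

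No probe passed in any single adult class either. In young adults against juveniles 11 of 12 probes were above 0 and 0 of 12 had an unadjusted p under 0.05 (1.64% of all probes did), with a gene mean difference of 0.0709 ± 0.0888 array SD. In middle-aged mice 10 of 12 were above 0 and 0 of 12 had such a p (1.96% of all probes), with a difference of 0.0607 ± 0.0948. In old mice 7 of 12 were above 0 and 0 of 12 had such a p, although 10.3% of all probes did, and the difference was 0.0265 ± 0.0911. The adjusted threshold was passed by 0% of all probes in each of these comparisons. Probe 15890 came nearest in old mice, at 0.198 ± 0.103 (unadjusted p = 0.0651, limma's adjusted p = 0.434). Of all probes, 51.2% were above 0 in young adults, 51.4% in middle-aged mice and 48.7% in old mice. These 4 comparisons share the juvenile mice, and the 12 probes are not independent in any of them.

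Among adults, the gene mean of old mice minus young adults was -0.0444 ± 0.0888, with 4 of 12 probes above 0 and 0 of 12 at an unadjusted p under 0.05 (6.17% of all probes). Adult females exceeded males by 0.0245 ± 0.0752, with 9 of 12 probes above 0 and 0 of 12 at such a p (1.18% of all probes). Within the juveniles, where residual liver blood formation would be sought in the youngest, the 5 mice of 33 to 44 days exceeded the 3 mice of 17 to 21 days by 0.0373 ± 0.132. There 8 of 12 probes were above 0 and 0 of 12 had an unadjusted p under 0.05 (4.75% of all probes). With 3 mice in the youngest group, the interval of this gene mean ran from -0.232 to 0.307. The share of all probes past the adjusted threshold was 0% in these comparisons as well. The share above 0 was 49.6% for old against young adults, 49.4% for females against males and 50.3% within the juveniles. Here too the 12 probes are not independent.

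While no age difference was detectable, the probes moved together from mouse to mouse. All 66 pairs of Hba-a1 probes had a positive correlation over the 32 mice, with a median Pearson r of 0.530 and a range from 0.148 (probes 11821 and 15890) to 0.896 (probes 10966 and 12571). The median over all pairs of probes on membrane B was -0.000770, and 11.7% of all those pairs exceeded the Hba-a1 median. In a permutation test with 100000 resamples, two-sided and adjusted over the 66 pairs, 58 pairs passed 0.05 for Pearson's r and 51 for Spearman's rho. The share of all pairs on the membrane that would pass it was not computed. Pairs of other probes can pass it too, since 11.7% of all pairs exceeded 0.530, a value at which Hba-a1 pairs passed. The counts of 58 and 51 therefore do not set Hba-a1 apart from other probes. The test exchanged mice freely, whatever the number in their sample titles. Probes 10966 and 12571 also had a rho of 0.903, and their r was 0.891 without the 2 mice farthest from the median. Leaving out those 2 mice for each pair gave a median r of 0.521 with all 66 above 0. In the 8 juveniles alone the median r was 0.341 and in the 24 adults alone 0.619; the difference between them was not tested.

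**Figure D3:**
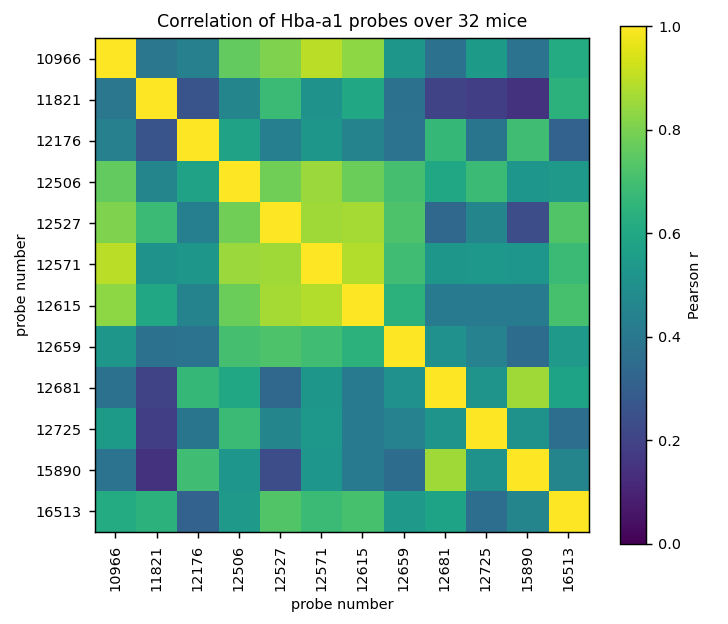
Pearson r over 32 mice for each pair of the 12 Hba-a1 probes (both axes list probe numbers; colour runs from 0 to 1, and the diagonal is 1 by definition). All 66 pairs lie above 0, from 0.148 to 0.896.

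Taken as deviations from the 8 group means, which removes age class and sex, the pairs had a median r of 0.567. With the first 2 principal components of all probes removed it was 0.480, and 4.31% of all pairs on the membrane exceeded that value. Neighbouring spots can share signal, and probes 22, 44, 66 or 88 positions away were treated as lattice neighbours here. Of the 66 pairs 18, formed by 9 of the 12 probes, lie a multiple of 22 positions apart, and 9 of these 18 lie within 88 positions. Median r was 0.532 over the 18 pairs and 0.530 over the 48 pairs at other distances. However, the 18 reach up to 1540 positions apart (probes 10966 and 12506). The 9 pairs within 88 positions ran from 0.411 (probes 12615 and 12681) to 0.886 (probes 12571 and 12615). The middle one of these 9, probes 12615 and 12659, had an r of 0.643, above the median of all 66 pairs. When the average deviation of lattice neighbours was taken off each probe, the median was 0.467, with 64 of 66 pairs above 0. For 9 of 12 probes the median r with the other Hba-a1 probes exceeded that with lattice neighbours not of Hba-a1. The exceptions were probes 11821, 12681 and 15890. Those neighbours were themselves correlated with the probes, with medians from 0.278 (probe 12176) to 0.694 (probe 15890), against -0.000770 over all pairs of the membrane. With the other Hba-a1 probes the medians ran from 0.396 (probe 11821) to 0.722 (probe 12527). For some probes these include lattice neighbours, up to 4 for probes 12615 and 12659, so neighbour signal can enter both sides. Of the probes without an Hba-a1 lattice neighbour, 10966, 12176, 12506 and 16513 were among the 9, and 11821 and 15890 among the exceptions. Among 14 genes with 5 or more probes on a membrane, Hba-a1 ranked 4th by median r, after Ftl1 (ferritin light chain, 0.931), Ppia (cyclophilin A, 0.892) and Eef1g (a translation elongation factor subunit, 0.658). With the 2 components removed Hba-a1 ranked 3rd, and Eef1g was at -0.0625.

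The mice with the highest gene means lay above the mean of every probe, though not always far above it. In 6 mice all 12 probes lay above their own mean over mice: 1 juvenile, 3 young adults, 1 middle-aged and 1 old mouse. The juvenile, male replicate 4, was at 0.33 on probe 12176, whose mean was 0.328 and median 0.335. The highest gene mean belonged to male old replicate 4, at 0.552 array SD, followed by female young adult replicate 2 at 0.448. The lowest belonged to female young adult replicate 1, at -0.142, where 0 of 12 probes lay above their mean. The female young adults therefore held both the lowest mouse and the second highest.

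The number in the sample titles went with this spread. The titles fall into 5 runs of numbers in which the ages recur, and the gene mean averaged -0.00464 array SD in numbers 1 to 14 (n = 7), 0.113 in 15 to 28 (n = 7), 0.131 in 30 to 41 (n = 6), 0.117 in 42 to 55 (n = 6) and 0.316 in 56 to 66 (n = 6). These sets accounted for 39.8% of the variance of the gene mean (permutation test, p = 0.00708). The labels do not say what the numbers record. Removing the means of the sets left a median r of 0.415 between the probes. Adults minus juveniles within the sets came to -0.0842, 0.150, 0.159, 0.0717 and 0.0948, with 1 juvenile in numbers 1 to 14 and 30 to 41 and 2 juveniles in each of the others. With the sets as a block in the fit the gene mean difference was 0.0889 ± 0.0645.

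**Figure D4:**
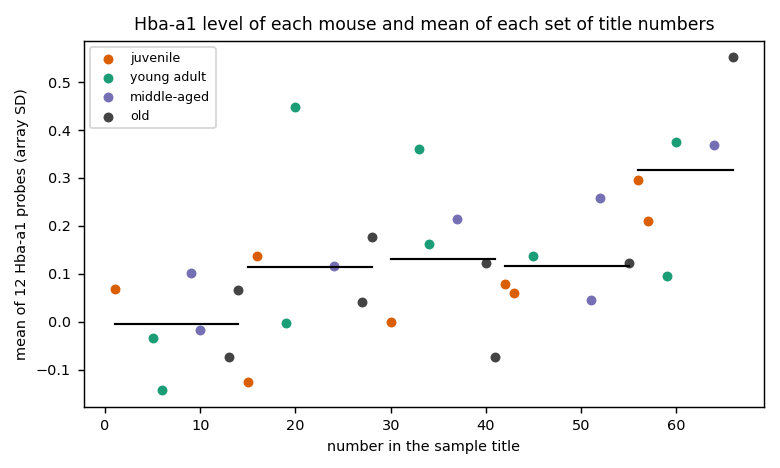
Mean of the 12 Hba-a1 probes in each mouse (vertical axis, array SD) against the number in its sample title (horizontal axis), coloured by age class. Black lines are the means of the 5 sets of numbers, from -0.00464 in the first to 0.316 in the last.

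Hba-a2, the near-identical copy, came first among genes ranked by likeness to Hba-a1. Of 7150 other genes, Hba-a2 had the highest correlation of gene means (r = 0.875, rho = 0.858), followed by Ppp1r13b (0.837), Col5a3 (0.807), Aga (0.804) and Rbm12b1 (0.799). The median r over all genes was 0.00473, and 413 genes exceeded 0.5. For the brightest probe, 12659, the closest probes with a single symbol were those of Rpl4, a ribosomal protein (r = 0.817), P4hb, protein disulfide isomerase (0.784), and Oaz1, ornithine decarboxylase antizyme (0.783).

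Hba-a2 probe 496 lies on membrane A, which was hybridised separately from the membrane that holds all Hba-a1 probes. It followed the Hba-a1 gene mean with r = 0.850 and rho = 0.778 (permutation tests adjusted over 13 relations, both p = 4.33e-05, resting on the smallest p that 100000 resamples give), and with r = 0.832 without the 2 farthest mice. Male old replicate 4 was the highest mouse on both membranes, with 0.83 array SD on probe 496, and female young adult replicate 1 was near the bottom of both at -0.40. By age class r was 0.701 in juveniles, 0.972 in young adults, 0.667 in middle-aged and 0.895 in old mice. By title number it was 0.910 in 15 to 28, 0.917 in 30 to 41 and 0.968 in 56 to 66, but -0.334 in 1 to 14 and -0.151 in 42 to 55, so the relation did not hold within those sets. With the set means removed it was 0.784.

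The other Hba-a2 probes parted. Probes 10328 (r = 0.925) and 10504 (r = 0.863) followed Hba-a1 closely on membrane B, with r from 0.827 to 0.958 and from 0.843 to 0.906 within the 5 sets. Probe 11536, the brightest of them, did not, with r = -0.0495 and rho = 0.0314 (permutation test, adjusted p = 0.853 for r). Within the 5 sets its r ran from -0.730 in numbers 56 to 66 to 0.498 in numbers 1 to 14. With lattice neighbours subtracted its r was -0.381. The lowest value of probe 11536, 0.73 array SD, belonged to female old replicate 2. That mouse was 1 of 6 left out together in an alternative fit, those with title numbers 27, 28, 30, 33, 34 and 43. These were not the 6 most extreme on the first principal component, where male juvenile replicate 2, not among them, lay farthest out at 47.0. Hba-x followed Hba-a1 more loosely (r = 0.471, rho = 0.455; permutation test, adjusted p = 0.0167 and 0.0256). Its r was 0.563 with quantile normalisation and 0.610 with median and MAD scaling, but 0.183 with lattice neighbours subtracted. The 4 probes of Hbb-y, an embryonic beta-like globin, had r between -0.103 and 0.306, and none passed the adjusted threshold in a permutation test. The second principal component of all probes also went with the Hba-a1 mean (r = 0.713, adjusted permutation p = 6.5e-05), while the first had r = -0.0494; with both removed, the probes kept the median r of 0.480 given above.

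**Figure D5:**
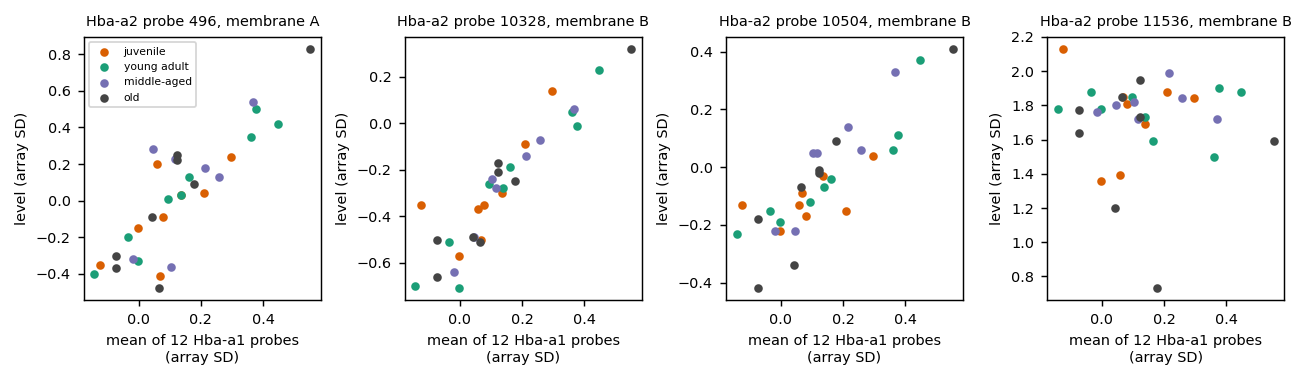
Level of each Hba-a2 probe (vertical axes, array SD, each with its own range) against the mean of the 12 Hba-a1 probes (horizontal axis, array SD) in 32 mice, coloured by age class. Probes 496, 10328 and 10504 rise with Hba-a1 (r = 0.850, 0.925 and 0.863) and probe 11536 does not (r = -0.0495).

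Other genes of red cells were compared between juveniles and adults in the same fit: 0 genes of any of the 12 lists examined passed the adjusted threshold, as was true of all 7151 genes, of which 192 had an unadjusted p under 0.05. Above 0 in adults were 3233 of all 7151 genes. Of 15 globins 4 were measured, and 1 was above 0 in adults. Hba-a2 was 0.0503 ± 0.0826 array SD higher, Hbb-y -0.0364 ± 0.0568, Hba-x -0.0403 ± 0.0871 and Ngb, the neuronal globin, -0.237 ± 0.131 (SE). The value of Ngb rested largely on male juvenile replicate 4, without which it was -0.0554. The adult beta globin genes on the list were not among the genes with a single symbol here.

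Of 9 haem synthesis enzymes 8 were measured, 4 above 0 and 4 below, with a median of -0.00128 beside -0.0119 for all genes. Cpox, which oxidises coproporphyrinogen, differed by 0.190 ± 0.101, and by 0.0602 without male juvenile replicate 2. Fech, which inserts iron to form haem, had -0.0824 ± 0.0516, and Uros had -0.0612 ± 0.0646. Of 20 erythroid regulators 5 were measured, 4 above 0. Gata1, the master transcription factor of red cell precursors, differed by 0.0821 ± 0.0785, the cytokine receptor gene Kit by 0.0710 ± 0.0527 and Jak2, which signals for the erythropoietin receptor, by 0.0923 ± 0.0792. These regulators were named for the smallest p of their list, whose lowest member was at -0.0452.

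Of 28 genes of the red cell membrane and its enzymes 9 were measured, 6 above 0. Those with the smallest p were Slc4a1, the anion exchanger band 3 (0.0822 ± 0.0754), Rhd, the Rhesus blood group protein (0.0832 ± 0.0811), and Car2, a carbonic anhydrase (0.0669 ± 0.0715). The lowest of the 9 was at -0.0606. Of 16 iron genes 8 were measured, 3 above 0. Cp, the plasma ferroxidase ceruloplasmin, had the smallest unadjusted p of the red cell and iron lists, and its difference was -0.182 ± 0.0687. It did not pass after adjustment. Slc25a37, the mitochondrial iron importer mitoferrin, had 0.121 ± 0.0662 and Ireb2, an iron sensor, -0.0608 ± 0.0560. Without female juvenile replicate 1 the difference of Slc25a37 was 0.0645. Of 7 genes that clear haemoglobin and haem 3 were measured, all below 0: Hmox1, the inducible haem oxygenase (-0.130 ± 0.116, and -0.0458 without male juvenile replicate 2), Lrp1, a receptor for haem bound to hemopexin (-0.0196 ± 0.0454), and Hmox2, the constitutive haem oxygenase (-0.00969 ± 0.0792).

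Markers of other cells were counted the same way. Above 0 in adults were 2 of 5 measured white blood cell genes, 1 of 1 platelet gene, 2 of 3 macrophage genes, 5 of 7 genes of dividing cells, 1 of 4 genes of the young liver and 2 of 4 hepatocyte genes, and 0 of them passed the adjusted threshold. Their part in the level of Hba-a1 was not tested.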

How the data were processed

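The submitters deposited 1 value per probe and array for 64 arrays of 32 livers; per the labels' protocols, RNA was column-extracted after bead beating and labelled with 33P-dCTP. Judged by shape, what the authors deposited is a z-score per probe, a score scaled within each array to mean 0 and SD 1. The sources used here give neither image reading, background treatment nor a transform before scaling, and no depth, so the number of mice limits the precision. Arrays of a mouse were joined by its title number; replicate numbers follow record order and pair nothing. For male old replicate 2 title and description disagree on the mouse, and the title was used.

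Symbols were updated by gene number through RefSeq (GRCm38.p6): 9641 of 9663 probes matched, 436 probes had several symbols and 6797 none. Each membrane was fitted with limma 3.58.1 (lmFit, eBayes, two-sided; R 4.3.3; statmod 1.5.0 for arrayWeights) with 8 group means of sex by age class; the juveniles were split at 21 days in a fit with sex as a term. Benjamini-Hochberg adjustment ran over 16896 probes, or 7151 genes (mean of a gene's probes), at 0.05. The scripts were tested on simulated data. Nothing in the labels says more of the mice than that they are separate samples, so p-values measure the spread between these samples. Correlations and their 100000 permutations used numpy 2.4.6, with ranks from scipy 1.17.1.

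The named genes were all Hba-a1 probes, the 5 genes most correlated with their mean, the 3 probes most correlated with the brightest, every measured globin and the 3 members of each red cell list with the smallest p. The probes and lists were chosen with earlier results of these data known. For the probes 12 alternatives were run beside leaving out each mouse: 2 scalings, a filter on the dimmest 25% of probes, trend and robust eBayes, arrayWeights, adjustment by membrane, title-number sets as a block, 2 principal components as covariates, 6 mice left out, lattice neighbours subtracted, the youngest juveniles left out and the mouse with disagreeing labels left out. The gene mean was also replaced by the brightest probe; each membrane alone adds nothing, since all Hba-a1 probes are on B.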

Additional observations from a re-analysis of the deposited data

Results flagged for a closer look

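Within age classes, 52 groups of values (12 probes and their mean, in 4 classes) were examined for a mouse apart from the others. Apart meant a gap that was large against the range of the group. Such a mouse was found in 6 groups, and chance gives about 1 in 20 for a single group. The groups share mice and the probes are correlated, so 6 of 52 cannot be set against that rate. Male old replicate 4 was the highest old mouse for the mean of the 12 probes at 0.552 array SD, with the other 7 between -0.0742 and 0.178. It was also apart on probe 12527 at 0.46 (others -0.27 to 0.04) and on probe 12615 at 0.32 (others -0.59 to -0.32). The same mouse had the highest value of all on Hba-a2 probe 496 on the other membrane, at 0.83 array SD.

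Male juvenile replicate 2 was the lowest juvenile on probe 15890 at -0.48, with the others between 0.13 and 0.42. Its membrane B array also stood apart as a whole, with a median of -0.24 and a median absolute deviation of 0.55. Female juvenile replicate 2 was the lowest on probe 11821 at -0.21, with the others between 0.12 and 0.41. Female young adult replicate 2 was the highest young adult on probe 11821 at 0.61, with the others between 0.09 and 0.35.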

How the results depend on the processing

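Under the alternatives, 0 of 1782 tested values in 41 results passed the adjusted threshold (smallest adjusted p = 0.0553), and the counts of called Hba-a1 probes stayed at 0. The adult minus juvenile gene mean stayed above 0, from 0.00965 to 0.0889 array SD, and the median agreement r lay between 0.488 and 0.577 when single mice were left out. Replicate numbers pair no mice; with the title-number sets as blocks the gene mean was 0.0889 and no call changed. Old minus juvenile in the gene mean turned to -0.00497 with quantile normalisation and -0.0294 with median and MAD scaling. It was -0.00733 without the 6 mice left out together and -0.0238 with the brightest probe. Adult minus juvenile changed sign as follows, and the cause was not tested. With quantile normalisation probes 12176 and 12527 were at -0.00469 and -0.00949. With median and MAD scaling probes 12176, 12506, 12527 and 12659 were at -0.0152, -0.00869, -0.0264 and -0.0168. Without the 6 mice probes 12506, 12527 and 12615 were at -0.0232, -0.0633 and -0.0300, Hbb-y at 0.0116 and Hmox2 at 0.0846. Without juveniles of 17 to 21 days probes 12506 and 12527 were at -0.000556 and -0.0234 and Hmox2 at 0.0255. Blocking on title-number sets put probe 10966 at 0.0289. With arrayWeights probe 12176 was at -0.0503, Hba-x at 0.161, Uros at 0.0621, Kit at -0.0332, Jak2 at -0.0600, Slc4a1 at -0.00682, Hmox1 at 0.0955 and Lrp1 at 0.00471. With lattice neighbours subtracted probes 10966 and 12659 were at 0.0667 and -0.00619, Hbb-y at 0.0155, Hba-x at 0.0202, Slc4a1 at -0.00258, Rhd at -0.000549, Ireb2 at 0.0176 and Lrp1 at 0.0167, and probe 11821 within the juveniles was at -0.0392. Leaving out each mouse in turn gave ranges across 0 for the old minus juvenile gene mean (-0.0388 to 0.0655), probe 10966 (-0.0709 to 0.0424), probe 12176 (-0.0310 to 0.0690), probe 12527 (-0.0126 to 0.0507), probe 12725 (-0.158 to 0.0491), Hba-x (-0.0873 to 0.00767), Uros (-0.0916 to 0.00175), Lrp1 (-0.0471 to 0.0141) and Hmox2 (-0.0728 to 0.0482). The correlation of Hba-a1 with Hba-a2 probe 496 fell to 0.638 with 2 principal components removed and 0.667 with neighbours subtracted, and that with probe 10504 to 0.730 with neighbours subtracted. Removing title-number set means, the alternatives for the Hba-a2 correlations and those for the lists were chosen after seeing the data.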
